A study of Homo sapiens with 30 samples.

Results

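The subject is where the related proteins TET1 and TET2 were found on chromatin in human cells depleted of CTCF, and how far their sites coincided. Of 70565 regions in the 8 peak lists of the series, 3347 belong here: 325 TET1 regions and 3022 TET2 regions of cells treated with indole-3-acetic acid (IAA). Rows of 1 list that had at least 1 bp in common were joined into 1 region, and a region was called shared when it had at least 1 bp in common with a region of the other list. By that rule 126 of the 325 TET1 regions (38.8%, Wilson 95% interval 33.6 to 44.2) and 123 of the 3022 TET2 regions (4.07%, 3.42 to 4.83) were shared. The other 199 regions are called TET1-only and the other 2899 TET2-only.

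The assay was chromatin immunoprecipitation with sequencing in HEK293T, an established human embryonic kidney line, edited at CTCF so that the protein can be degraded on addition of an auxin. All cells were co-transfected with ScFv-miniIAA7-mEGFP and AtAFB2-mCherry plasmids, the parts of the degradation system, and were later given fresh medium with 0.5 mM IAA or without IAA for 72 h. A label names DMSO for the cells without IAA, which are called "without IAA" here. Antibodies to TET1, TET2, CTCF and MBD3 and inputs give 10 groups of 3 samples, and the 3 samples of a group stand behind 1 pooled list. HEK293T is 1 line, and the labels do not say whether the edited cells are 1 clone.

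TET1 and TET2 are dioxygenases that oxidise 5-methylcytosine in DNA, the first step of active demethylation. TET1 carries a CXXC zinc finger that binds CpG-rich DNA, whereas TET2 lacks one and is brought to DNA by partner proteins. CTCF binds DNA through zinc fingers and holds the anchors of chromatin loops, and MBD3 is a subunit of the NuRD remodelling complex. Human centromeres are built of satellite repeats, and the regions next to chromosome ends are rich in duplicated sequence and CpG-dense elements. Reads from repeated sequence cannot always be assigned to 1 copy, which bears on each value given near centromeres.

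With 1 pooled list for each antibody and condition there is no spread between replicates, so the comparisons carry no test. Intervals are Wilson 95% intervals and cover counting error over regions only. Regions of 1 cluster share a locus and are not independent. The number of reads behind a list is unknown, and it sets how many weak regions reach the threshold. Fold enrichment over the control and the q-value are the authors' values per region and were ranked only within 1 list. Between lists they entered as rank correlations over shared pairs and as limits set alike for both lists. Which control was set against the antibody reads is not stated in the sources used here.

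The CTCF list held 63 regions with IAA and 42925 without IAA. The shared regions made up a large part of the short TET1 list and a small part of the long TET2 list. Without IAA the list lengths lay the other way round: 452 of 16246 TET1 regions (2.78%) and 455 of 1326 TET2 regions (34.3%) were shared. With IAA, the 325 TET2 regions of highest −log10 q, as many as the TET1 list holds, met 64 of the TET1 regions (19.7%, 15.7 to 24.4), and 61 of these TET2 regions were shared (18.8%, 14.9 to 23.4). When regions of both lists were chained at gaps of up to 10 kb into 2565 loci, 87 loci held both proteins, which was 33.7% of the 258 loci with TET1 and 3.63% of the 2394 loci with TET2. The shares did not rest on regions where CTCF or MBD3 was also called with IAA: without those, 36.6% of TET1 regions and 3.47% of TET2 regions were shared.

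Most shared regions lay near centromeres, in a few loci, or near chromosome ends. A region was called near a centromere when it lay within 5 Mb of its chromosome's longest stretch with no region in any list, and near an end when it lay within 5 Mb of a chromosome end. Each kind of position takes up 7.19% of the length of chromosomes 1 to 22 and X outside those empty stretches. Of the 312 TET1 regions on these chromosomes, 73 lay near a centromere (23.4%, 19.04 to 28.4) and 85 near an end (27.2%, 22.6 to 32.4). Of the 2897 TET2 regions, 406 lay near a centromere (14.01%, 12.8 to 15.3) and 976 near an end (33.7%, 32.0 to 35.4). Over the regions of the 6 other lists the shares were 6.35% near a centromere and 8.94% near an end, and they were 6.30% and 9.27% for TET1 without IAA and 7.41% and 8.65% for TET2 without IAA. The small lists of the other antibodies with IAA had 31.7% of 63 CTCF regions and 52.2% of 46 MBD3 regions near a centromere, and 20.6% and 17.4% near an end.

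Within the TET1 list, 39.3% of the 117 shared regions on these chromosomes lay near a centromere, against 13.8% of the 195 TET1-only regions. Near ends the shares were 38.5% of shared and 20.5% of TET1-only regions, so 22.2% of shared and 65.6% of TET1-only regions lay elsewhere. In the TET2 list, 38.6% of the 114 shared regions lay near a centromere, against 13.01% of the 2783 TET2-only regions. The centromere contrast rested largely on chromosomes 10 and 16. Without them, 17.7% of shared (10.9 to 27.6) and 12.6% of TET1-only regions (8.50 to 18.4) lay near a centromere, with overlapping intervals, and 17.9% of shared and 10.5% of TET2-only regions (11.004 to 27.9 and 9.32 to 11.8). Measured from a hand-written arm boundary, from which the large chromosome 16 cluster lies over 5 Mb away, the shares were 22.2% of shared and 11.3% of TET1-only regions, and 22.8% of shared and 9.63% of TET2-only regions. Near ends the TET2 classes lay closer together, with 39.5% of shared and 33.5% of TET2-only regions, and the intervals of 31.0 to 48.6 and 31.7 to 35.2 overlapped. With chromosomes 10 and 16 included, the TET2 classes thus lay farther apart in their share near centromeres than in their share near ends. Without those chromosomes the intervals near centromeres overlapped as well. The shares near ends were not recomputed without them, so the order was not tested there.

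**Figure D1:**
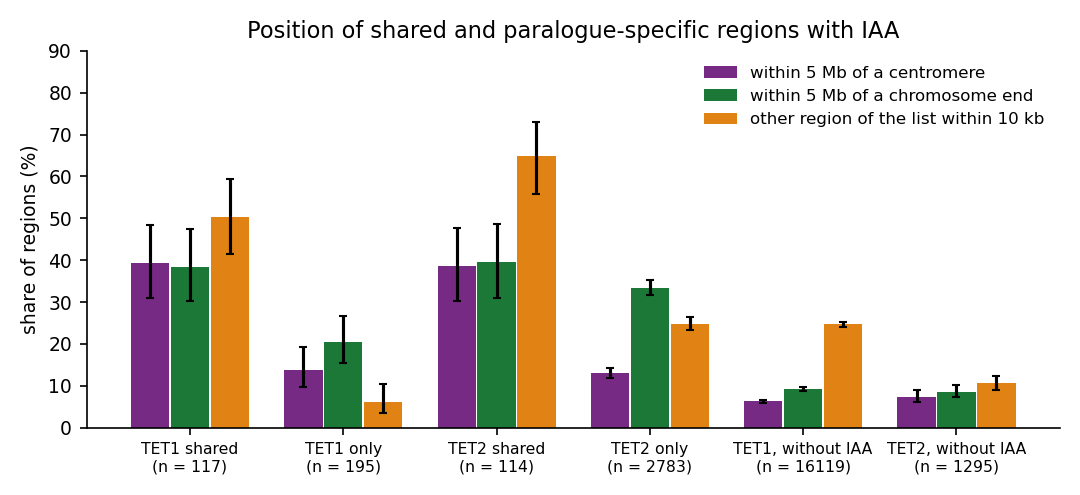
Bars give the share of regions on chromosomes 1 to 22 and X (percent, vertical axis) within 5 Mb of a centromere, within 5 Mb of a chromosome end, or with another region of the same list within 10 kb, and lines are Wilson 95% intervals over regions. The shared classes stand at 39.3% and 38.6% near a centromere, above TET1-only (13.8%), TET2-only (13.01%) and both lists without IAA. Not drawn are CTCF (31.7%) and MBD3 (52.2%) with IAA. Without chromosomes 10 and 16 the share was 17.7% of shared TET1 and 12.6% of TET1-only regions.

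Read by position, 46 of 73 TET1 regions near a centromere were shared (63.0%, 51.5 to 73.2), as were 45 of 85 near an end (52.9%, 42.4 to 63.2) and 26 of 154 elsewhere (16.9%, 11.8 to 23.6). The TET2 shares ran in the same order, with 44 of 406 near a centromere (10.8%, 8.17 to 14.2), 45 of 976 near an end (4.61%, 3.46 to 6.11) and 25 of 1515 elsewhere (1.65%, 1.12 to 2.42). Counted over loci, 20 of 36 TET1 loci near a centromere (55.6%), 43 of 75 near an end (57.3%) and 24 of 147 elsewhere (16.3%) also held TET2, so that centromeres no longer led. For TET2 loci the share also holding TET1 was 10.3% near a centromere (6.77 to 15.4), 5.44% near an end (4.06 to 7.24) and 1.70% elsewhere. Centromeres still had the highest value, but their interval overlapped that of ends. The pericentromeric TET1 regions were concentrated in few loci, and with 1 position counted per cluster the share of TET1 regions near a centromere was 14.3%.

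Of the 46 shared TET1 regions near a centromere, 33 lay within 0.25 Mb of the empty stretch, as did 14 of the 27 TET1-only ones. The empty stretch is bounded by regions of these same lists, on chromosomes 10 and 16 by the first TET2 region of a cluster, so this closeness is partly set by the definition. Chromosome 16 alone had 21 of the 46 and chromosome 10 had 11, followed by chromosome 2 with 6 and chromosome 7 with 3. Without chromosomes 10 and 16, 14.2% of TET1 regions and 10.7% of TET2 regions lay near a centromere. The 45 shared regions near ends were spread more widely, with at most 8 on 1 chromosome, chromosome 7. Of these 45, 7 lay within 0.25 Mb of the end, 14 between 0.25 and 1 Mb, 11 between 1 and 2 Mb and 13 between 2 and 5 Mb. Chromosome 3 had 2 TET1 regions and 64 TET2 regions, with 0 shared, and the X chromosome had 1 shared region among 16 TET1 and 80 TET2 regions.

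The largest clusters show the arrangement at single loci. On chromosome 16 at 46385936 to 46435550 (hg19), 48 TET2 regions stood in 49.6 kb, 18 of them shared. The same stretch held 20 TET1 regions, and all 20 were shared. They formed 2 of the 3 largest TET1 clusters, 13 regions at 46389575 to 46407035 and 7 at 46420355 to 46435498. TET1 fold ran here between 1.41 and 2.46 and TET2 fold between 1.83 and 7.17, while −log10 q reached 114 in the TET1 list and 330 in the TET2 list. The lists without IAA had 0 regions in this stretch, and the lists with IAA had 2 CTCF and 2 MBD3 regions.

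On chromosome 10 at 42356108 to 42396969, 35 TET2 regions and 8 TET1 regions stood in 40.9 kb, and the 8 TET1 regions were shared. The lists without IAA had 0 regions in that stretch too. The TET1 cluster went on to 42400702 with 3 more regions, none of them shared. In the whole TET1 cluster (42378321 to 42400702) the lists without IAA had 2 CTCF, 3 TET1, 3 TET2 and 2 MBD3 regions, which therefore lay on the side of the 3 TET1-only regions. Another large TET2 cluster, on chromosome 4 at 49093997 to 49157006, held 31 TET2 regions but 1 TET1 region, which was shared. Over the whole TET2 list 4.07% of regions were shared, and 10.8% of those near centromeres, so 1 among 31 does not set this stretch apart. The TET1 list is much shorter, and a missing TET1 call does not measure absence of the protein.

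Clustering went with sharing in both lists. A neighbour of the same list within 10 kb was present for 59 of 117 shared TET1 regions (50.4%, 41.5 to 59.3) and 12 of 195 TET1-only regions (6.15%, 3.55 to 10.4). For TET2 the counts were 74 of 114 shared regions (64.9%, 55.8 to 73.1) and 690 of 2783 TET2-only regions (24.8%, 23.2 to 26.4). Over the other 6 lists pooled, 33.3% of regions had such a neighbour. The shared classes lay above this background and TET1-only and TET2-only regions below it, in lists of very different length. CTCF without IAA gave 42300 of these 66391 regions, with a share of 39.9%. The other lists without IAA had 24.7% for TET1, 10.7% for TET2 and 16.9% for MBD3. With IAA the shares were 19.05% for CTCF and 28.3% for MBD3. The whole lists with IAA had 22.8% for TET1 and 26.4% for TET2, both within the range of these single lists. TET2-only regions lay within that range and TET1-only regions below it, but each class is part of a list set against whole lists. Among the 325 TET2 regions of highest −log10 q, 52.8% of those on chromosomes 1 to 22 and X had a neighbour within that shorter list. Near centromeres 78.3% of shared and 25.9% of TET1-only regions were clustered, near ends 31.1% and 5.00%, and elsewhere 34.6% and 2.34%. The TET2 classes differed less by position: 90.9% of shared and 56.6% of TET2-only regions near centromeres, 53.3% and 32.0% near ends, and 40.0% and 12.6% elsewhere. TET1 formed 18 clusters, 9 of them pairs and 4 of at least 5 regions, and TET2 formed 261, 200 of them pairs and 12 of at least 5 regions.

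Shared TET1 regions were lower in fold and higher in −log10 q than TET1-only regions, so their strength depends on the measure. In the TET1 list the shared regions had a median fold of 2.91 (percentile 27.4 of the list) and TET1-only regions one of 4.45 (percentile 62.5). By −log10 q the order turned, with a median of 5.77 (percentile 73.2) for shared and 2.27 (percentile 36.6) for TET1-only regions. Near centromeres the median −log10 q percentile was 88.5 for shared and 68.6 for TET1-only regions, and near ends 65.8 and 40.1. Elsewhere it was 42.2 and 31.5, so shared TET1 regions there lay below the middle of the list. In the TET2 list, median fold was 4.51 for shared and 4.82 for TET2-only regions (percentiles 36.2 and 50.6), and median −log10 q was 10.6 and 2.90 (percentiles 90.01 and 46.2). The TET2 order by fold varied with position: the median percentile was 10.5 for shared and 40.7 for TET2-only regions near centromeres, 53.7 and 52.5 near ends, and 70.1 and 51.2 elsewhere.

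Cut by fold into 5 bins of equal number, weakest first, 73.8%, 66.2%, 12.3%, 20.0% and 21.5% of TET1 regions were shared. Cut by −log10 q, the shares were 18.5%, 15.4%, 35.4%, 44.6% and 80.0%. TET2 by fold was shared most in the weakest and the strongest bin (8.44%, 2.32%, 1.49%, 2.15% and 5.95%). By −log10 q, sharing in the TET2 list was concentrated in the strongest bin (1.16%, 0.83%, 1.65%, 2.98% and 13.7%).

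**Figure D2:**
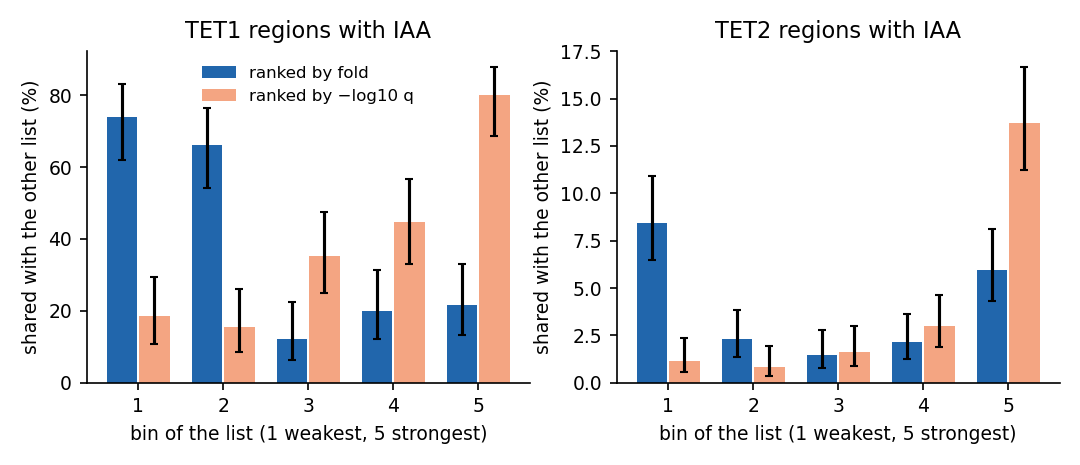
Bars give the share of regions also in the other list (percent, vertical axis) for 5 equal bins of the TET1 list (left) and of the TET2 list (right) with IAA, ranked by fold or by −log10 q, with Wilson 95% intervals as lines. The weakest TET1 bin by fold and the strongest by −log10 q were shared at 73.8% and 80.0%, and the vertical scales of the panels differ.

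A group of regions with fold under 3 and −log10 q of at least 10, limits chosen after the values were seen, held part of the shared regions. It had 46 TET1 regions, of which 37 were shared (80.4%, 66.8 to 89.3), 38 lay near a centromere and 40 were clustered. Of the other 279 TET1 regions, 89 were shared (31.9%, 26.7 to 37.6). The same limits picked 33 TET2 regions, with 11 shared (33.3%, 19.8 to 50.4), against 112 of the other 2989 (3.75%, 3.12 to 4.49). Across TET1 regions, which are not independent, Spearman's rho between fold and −log10 q was −0.49 over the 117 shared and 0.39 over the 195 TET1-only regions. Over TET2 regions it was −0.04 for 114 shared and 0.76 for 2783 TET2-only regions. Position moved with strength: shared TET1 regions had a median −log10 q of 18.9 near centromeres, 4.09 near ends and 2.63 elsewhere, and shared TET2 regions one of 99.5, 7.57 and 7.09. The part of the control, of copy number and of repeat mapping in the joint low fold and high −log10 q was not tested.

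**Figure D3:**
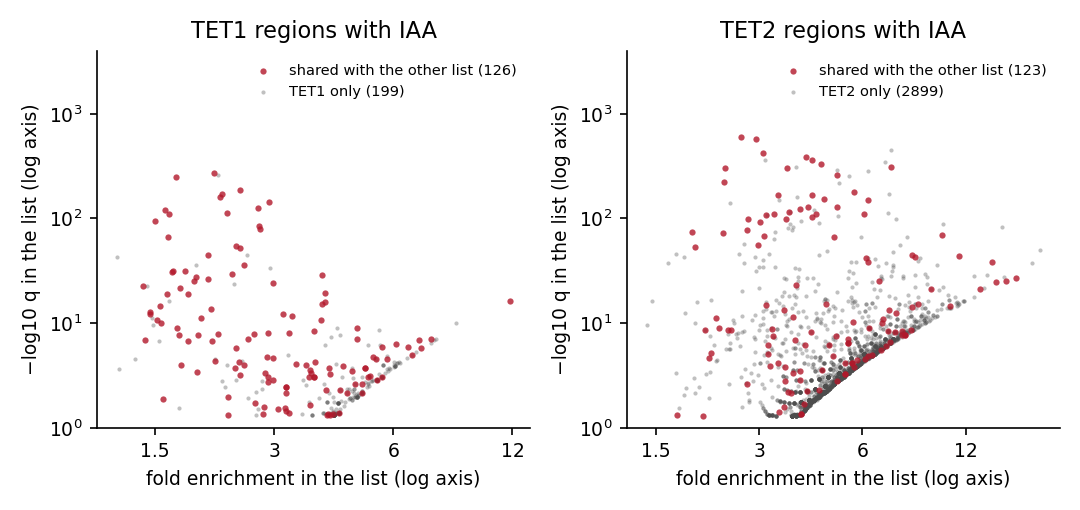
Each point is a region with IAA, with fold enrichment on the horizontal axis and −log10 q on the vertical axis (both log axes), for TET1 (left, 126 shared and 199 TET1-only) and TET2 (right, 123 shared and 2899 TET2-only). Most shared TET1 regions above a −log10 q of 10 lie below a fold of 3, and TET1-only regions gather along the lower right edge.

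The shared regions of highest fold on chromosomes 1 to 22 and X lay at single places outside the dense clusters of TET1. Ranks are over the whole list, and an unplaced contig held a further shared region with TET1 rank 8 and TET2 rank 7 (6.96-fold and 14.8-fold). The TET1 region of highest fold, at 33887627 to 33887789 on chromosome 16 near the centromere, ranked 1 in its list with 11.8-fold enrichment and met the TET2 region of rank 3 with 16.8-fold enrichment, with summits 5 bp apart. Near the end of chromosome 21, at 47510830 to 47511032, TET1 rank 6 (7.46-fold) met TET2 rank 4 (15.8-fold), with summits 102 bp apart. On these chromosomes the next shared regions by TET1 fold lay near the ends of chromosomes 12 (131372075 to 131372410, TET1 rank 7 and TET2 rank 136), 18 (667061 to 667418, ranks 10 and 1320) and 1 (547199 to 547506, ranks 12 and 27). By TET2 fold, the order there went on near the end of chromosome 7 (628209 to 628459, TET1 rank 206 and TET2 rank 8) and of chromosome 6 (169309876 to 169310028, ranks 74 and 11). None of these 7 shared regions had another TET1 region within 10 kb, and none touched a CTCF or MBD3 region of cells with IAA.

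The shared regions of highest −log10 q were chosen after their values were seen and combined a high −log10 q rank with a low fold rank. At 42395986 to 42396183 on chromosome 10, TET1 ranked 1 by −log10 q (273) but 283 of 325 by fold (2.11-fold), and TET2 ranked 4 by −log10 q (421) and 2929 of 3022 by fold (3.07-fold). At 42596949 to 42597159 on the same chromosome, TET2 ranked 1 by −log10 q (596) and 2970 by fold (2.64-fold), and TET1 ranked 3 (251) and 302 (1.70-fold). Both places were also CTCF and MBD3 regions of cells with IAA. At 92269428 to 92269586 on chromosome 2, near the centromere, TET1 ranked 4 by −log10 q and 262 by fold, and TET2 ranked 7 and 2131. At 55627309 to 55628214 near the end of chromosome 19, TET2 ranked 2 by −log10 q and 2944 by fold, and TET1 ranked 12 and 315. These last 2 places touched no CTCF or MBD3 region of cells with IAA, and the one on chromosome 2 had no neighbour of its own list within 10 kb for either protein. In all, 5 TET1 regions had all 4 antibodies with IAA, 2 on chromosome 10 and 1 each on chromosomes 16, 7 and 19, with the first 4 near centromeres and the last near an end.

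Where the proteins shared a region, their summits were usually close, but overlap by itself limits the distance. Shared regions had median widths of 226 bp (TET1) and 334 bp (TET2), and the distance set by overlap alone was not computed. The median distance over 117 pairs was 27 bp (quartiles 8 and 101, highest 771), with 58.1% of pairs within 50 bp and 88.0% within 200 bp. Near centromeres the median was 12.5 bp over 46 pairs, near ends 58 bp over 45 pairs and elsewhere 42.5 bp over 26 pairs. The distance also moved with −log10 q: 41 pairs with at least 10 in both lists had a median of 7 bp and 92.7% within 50 bp, and the other 76 pairs had 61.5 bp and 39.5%. Among the pairs below that limit the median was 62.5 bp near ends and 55.5 bp elsewhere, and the few pairs above it had 5 bp near ends (5 pairs) and 8.5 bp elsewhere (4 pairs). Without IAA the 429 pairs had a median of 49 bp and 50.6% within 50 bp.

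**Figure D4:**
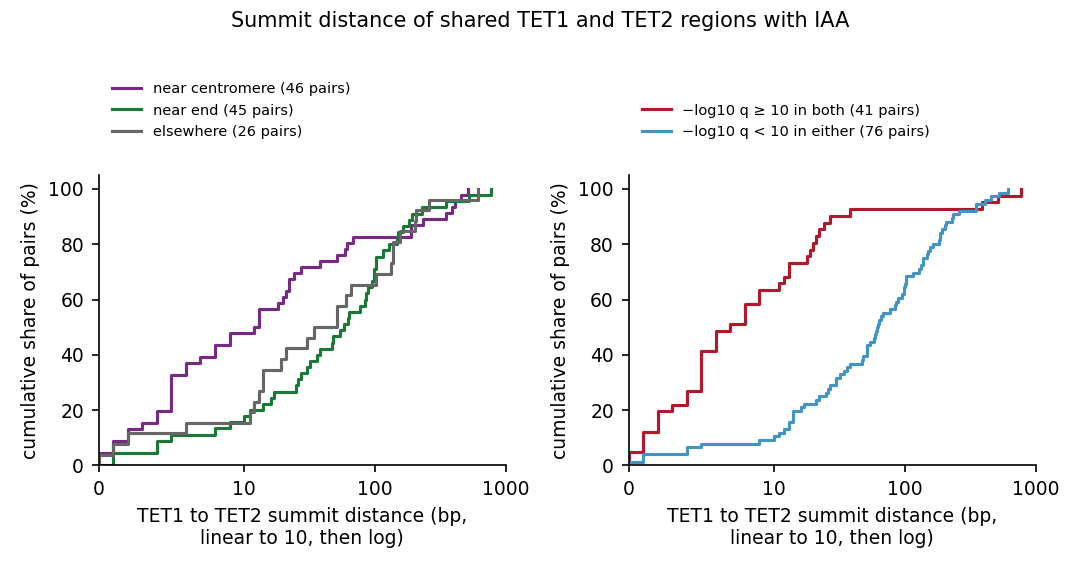
Lines give the cumulative share of shared pairs (percent, vertical axis) up to a TET1 to TET2 summit distance (bp, horizontal axis, linear to 10 and then log), by position (left) and by −log10 q in the lists (right). The 41 pairs with −log10 q of at least 10 in both lists rise first, with a median of 7 bp against 61.5 bp for the other 76.

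The nearest summits, at 0 bp, included a pair on chromosome 14 away from ends and centromeres (91759633 to 91759932). The clusters described above held the other named pairs at 0 bp, at 42387231 to 42387392 of chromosome 10 and at 46391365 to 46391691 of chromosome 16. The farthest summits lay 771 bp apart at 55625937 to 55626833 on chromosome 19, where the TET1 region was joined from 4 rows and the TET2 region from 3, so a broad region with several summits was compared. The next lay 613 bp apart on chromosome 17 (64795323 to 64795544) and 523 bp apart on chromosome 6 (169240467 to 169240978), both with a TET2 region over 1 kb wide. Within pairs, fold, −log10 q and width were related across the lists, with a Spearman's rho of 0.71, 0.77 and 0.42 over the 117 pairs, which are not independent. Over the 429 pairs without IAA, rho was 0.34, 0.21 and 0.22 in the same order. With IAA the rho of −log10 q varied: 0.83 near centromeres, 0.48 near ends and 0.33 elsewhere. It was 0.77 over the 41 pairs with −log10 q of at least 10 in both lists and 0.25 over the other 76. The rho of fold was 0.59, 0.62 and 0.55 by position, and 0.86 and 0.58 by that limit.

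TET2 regions were the wider ones at shared places. The TET2 region was wider than the TET1 region in 94 of 117 pairs (80.3%), and in 77 pairs the TET1 region lay wholly inside the TET2 region. Without IAA the TET2 region was wider in 40.1% of 429 pairs. Shared TET1 regions had a median width of 226 bp and TET1-only regions one of 181 bp. Shared TET2 regions had a median width of 334 bp and TET2-only regions one of 177 bp. The TET2 difference was present at each position, with 332.5 and 178 bp near centromeres, 368 and 200 bp near ends and 297 and 169 bp elsewhere. Regions joined from several rows were commoner among shared ones: 20.5% of shared and 2.05% of TET1-only regions, and 35.1% of shared and 6.83% of TET2-only regions, were joined. Over single rows the shared medians were 263.5 bp for TET1 and 445 bp for TET2. There a region of several rows counts once per row, so these medians do not show the width apart from joining.

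The TET1-only regions included a set that lay where CTCF was called in cells without IAA, which were kept in parallel for the same 72 h. Of 199 TET1-only regions, 45 touched a CTCF region of cells without IAA (22.6%, 17.4 to 28.9) and 35 a TET1 region of cells without IAA (17.6%, 12.9 to 23.5). Of 126 shared TET1 regions, 0 touched such a CTCF region, which allows a share of up to 2.38% by a limit of 3 counts (Wilson upper bound 2.96%), and 1 touched a TET1 region of cells without IAA. The contrast in CTCF regions of cells without IAA was present at each position. They touched 8 of 27 TET1-only regions near centromeres, 9 of 40 near ends and 28 of 128 elsewhere. The shared counts were 0 of 46, 0 of 45 and 0 of 26. CTCF regions of cells with IAA touched 7 of the 27, 1 of the 40 and 1 of the 128. Regions touching both CTCF lists were not counted, and whether the set marks places that lost CTCF was not tested at any position. For TET2 the counts were 0 of 123 shared regions, which allows up to 2.44% by the same limit (Wilson upper bound 3.03%), and 35 of 2899 TET2-only regions (1.21%, 0.87 to 1.67). Of the TET2-only regions, 5 touched a TET2 region of cells without IAA.

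**Figure D5:**
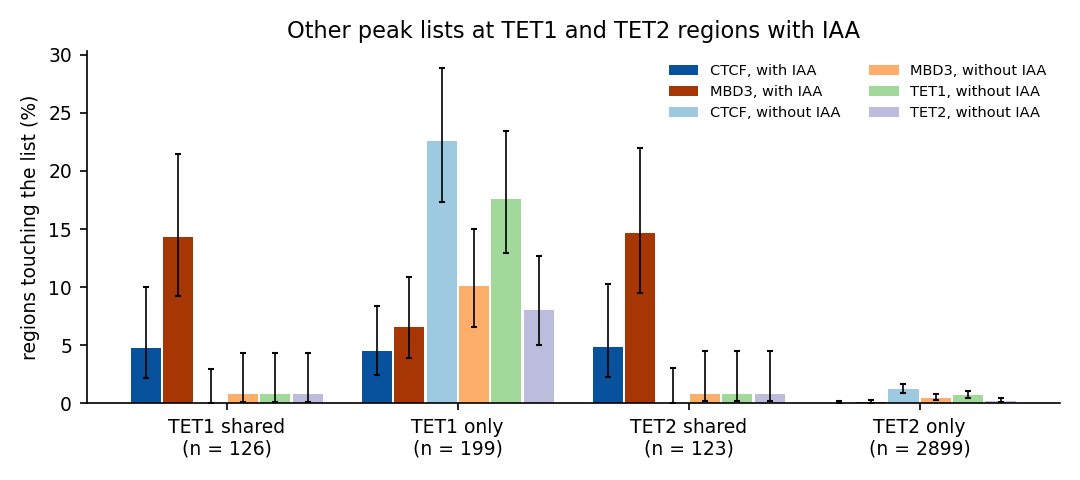
Bars give the share of TET1 and TET2 regions with IAA (percent, vertical axis) that touched a region of each of 6 other lists, by class, with Wilson 95% intervals as lines. CTCF regions of cells without IAA met 22.6% of TET1-only regions, 0 of 126 and 0 of 123 shared regions, and 1.21% of TET2-only regions.

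In cells with IAA, MBD3 met more of the shared regions than CTCF did. MBD3 regions of cells with IAA touched 18 of 126 shared TET1 regions (14.3%, 9.23 to 21.5) and 13 of 199 TET1-only regions (6.53%, 3.86 to 10.9), and the intervals overlapped. CTCF regions of cells with IAA touched 6 shared (4.76%) and 9 TET1-only regions (4.52%). TET2-only regions met 2 MBD3 regions and 1 CTCF region among 2899. Seen from the other side, 31 of the 50 MBD3 regions with IAA met TET1, 20 met TET2 and 18 met both, and of 63 CTCF regions with IAA, 15 met TET1, 7 met TET2 and 6 met both.

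Outside the overlaps, regions near ends and centromeres lay closer to the other list than regions elsewhere. TET1-only regions had a median distance of 224411 bp to the nearest TET2 region, with 22 of 195 within 10 kb (11.3%) and 72 within 100 kb (36.9%). The median was 50349 bp near centromeres, 49146.5 bp near ends and 394427 bp elsewhere. The order of centromeres and ends depended on the distance: 37.0% near centromeres, 20.0% near ends and 3.13% elsewhere lay within 10 kb of a TET2 region, and 55.6%, 77.5% and 20.3% within 100 kb. The TET2 list is itself denser near ends and centromeres. Of the TET2-only regions, 4.17% lay within 10 kb and 11.2% within 100 kb of a TET1 region. Here centromeres led at both distances, with 22.7% near centromeres, 2.79% near ends and 0.54% elsewhere within 10 kb, and 43.1%, 12.6% and 2.62% within 100 kb.

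Among TET1-only regions, the highest fold was 8.65 at 7174949 to 7175287 on chromosome 1, which ranked 2 in the TET1 list. The next lay at 147551695 to 147551883 on chromosome 1 (7.71-fold), at 87303582 to 87303778 on chromosome 2 (7.62-fold), near the end of chromosome 2 at 240628764 to 240629016 (7.48-fold) and on chromosome 8 (6.86-fold). The one at 87303582 touched CTCF and TET1 regions of cells without IAA, and the other 4 touched no region of the 6 other lists.

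Among TET2-only regions, the highest fold was 19.8 at 131962095 to 131962272 near the end of chromosome 12, which ranked 1 in the TET2 list and lay 589684 bp from the nearest TET1 region. It was followed by 186748197 to 186749196 near the end of chromosome 4 (18.7-fold), 133830372 to 133830850 on chromosome 9 (15.5-fold), 176018777 to 176018955 near the end of chromosome 5 (15.3-fold) and 92286460 to 92286639 on chromosome 9 (13.9-fold). None of these 5 touched a region of the 6 other lists. The strongest TET2 regions by fold thus included both shared and TET2-only ones near ends.

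Sequences other than chromosomes 1 to 22 and X held 13 TET1 regions, 9 of them shared, and 125 TET2 regions, 9 of them shared. One unplaced contig had 8 TET1 regions, 6 of them shared, and 31 TET2 regions, 6 of them shared.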

How the data were processed

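ChIP-seq peak lists of 3 pooled samples per antibody and condition were used as deposited. Per the submitters' processing notes the build was hg19 and the tools were MACS2 2.1.2, Bowtie2 2.3.4, bedtools 2.25.0, SAMtools 1.9 and FastQC 0.11.7, with no roles given. The deposited lists give the fold enrichment (a ratio), −log10 of the q-value and the summit offset, computed by the authors. The highest q was 0.05. Depth and the control are not given in the sources used here.

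Python 3.11.15 with pandas 2.3.3, numpy 2.4.6 and matplotlib 3.10.9 was used. A joined region took its fold and −log10 q from the highest of its rows, and its summit from the row of lowest q. Percentiles are ranks in the whole list, while position, strength, width and summit distance are summarised over chromosomes 1 to 22 and X. A chromosome end is base 1 or the highest listed position. Where the longest empty stretch begins at base 1 (chromosomes 13, 14, 15, 21 and 22), that side counts as the centromere, which on chromosome 21 may not be the true place. Clusters chain regions at gaps of up to 10 kb. The overlap, the joining and the gap to the nearest region of the same list were tested on simulated data. Distances to ends, centromeres, summits and the other list were not.

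Regions named are, per class, the 5 of highest fold in each list, the 3 largest clusters of each list and the 3 nearest and 3 farthest summits. The classes and landmarks were chosen with earlier results of these data known. No gene or sequence is given at a region, since no hg19 reference was used here. Alternatives varied the overlap rule, thresholds, windows, joining, sequences and list lengths.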

Additional observations from a re-analysis of the deposited data

How the results depend on the processing

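Of 74 alternatives over 17 values, 27 left the value inside its 95% interval and 47 moved it; none was tested. The share of TET1 regions shared with TET2 was 28.0% with 50% of both regions in common, 69.7% at −log10 q of at least 5, 25.4% at fold of at least 3, 19.7% with equal list lengths and 29.7% without centromeric regions and other sequences, the last chosen after seeing the data. The share of TET2 regions shared with TET1 was 3.01%, 7.06%, 1.97%, 18.8% and 2.81% in the same order, and 5.51% over single rows. The median summit distance was 9 bp at −log10 q of at least 5.

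Near ends lay 18.6% of TET1 regions at 2 Mb, and 18.0% at 2 Mb, 45.4% at 10 Mb and 36.3% at −log10 q of at least 5 for TET2. Near centromeres lay 29.8% of TET1 regions at 10 Mb, 61.7% at −log10 q of at least 5, 14.3% with 1 position per cluster, 15.4% by a hand-written arm boundary, from which the chromosome 16 cluster lies over 5 Mb away, and 14.2% without chromosomes 10 and 16, chosen after seeing the data. For TET2 the shares were 10.1% at 2 Mb, 18.6% at 10 Mb, 28.5% at −log10 q of at least 5, 8.10% with 1 position per cluster, 10.1% by the arm boundary and 10.7% without chromosomes 10 and 16. By class, added after seeing the data, the arm boundary gave 22.2% of shared TET1, 22.8% of shared TET2 and 9.63% of TET2-only regions, and leaving out both chromosomes gave 17.7%, 17.9% and 10.5%.

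The clustered share at the main setting was 22.8% for TET1 and 26.4% for TET2. Over single rows, overlapping rows of 1 region count as neighbours, which raises the share by rule. For TET1 the clustered share was 11.5% at 1 kb, 30.8% at 100 kb, 58.0% at −log10 q of at least 5 and 32.5% over single rows. For TET2 it was 16.9%, 52.8%, 33.6% and 37.1%, and 52.8% with equal list lengths. The median percentile of shared regions by −log10 q in place of fold was 73.2 for TET1 and 90.01 for TET2. Median widths over single rows were 263.5 bp for TET1 and 445 bp for TET2, and 292.5 bp for TET2 with 50% of both regions in common. Other causes of these moves were not tested. The unknown depth limits which weak regions could be called. No paired analysis was possible because the lists pool the 3 samples of a group.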
